A study of Mus musculus with 11 samples.

Results

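The genes described here are the Wnt ligands, their Frizzled and LRP receptors and the alternative Wnt receptors Ror1, Ror2 and Ryk. They were chosen by name from the platform annotation (every numbered Wnt and Fzd symbol, with Lrp5, Lrp6, Ror1, Ror2 and Ryk), which gave 34 of the 18193 genes that have a probe set of their own: 19 ligands, 10 Frizzled receptors, 2 LRP co-receptors and 3 alternative receptors. The choice used no measured value except that each gene was read on 1 probe set, the one with the highest mean over all arrays. They were read on 11 Affymetrix arrays that hold the RNA of 6 populations sorted from mouse bone.

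Mx1+Ocn- P-SSCs (2 arrays) were periosteal skeletal stem/progenitor cells of mice carrying Mx1-Cre, a Rosa-Tomato reporter and Osteocalcin-GFP, sorted as Tomato positive and GFP negative. Mx1+Nes+ BM-SSCs (2 arrays) were marrow cells of mice with Mx1-Cre, Rosa26-Tomato and Nestin-GFP, positive for both colours. Both gates also took CD105+CD140a+ cells, and by the labels the cells of all populations but CD45+ cells were depleted of CD45, CD31 and Ter119. According to the methods these mice were irradiated with 9.5 Gy at an age of 4 weeks and given wild-type marrow, and Mx1-Cre, which interferon switches on and which also marks blood cells, was induced 6 to 8 weeks later with pIpC at 25 mg/kg for 10 days. Nes+ BMSCs (1 array) were CD105+CD140a+ marrow cells with Nestin-GFP, labelled Mx1+/- where the BM-SSCs are Mx1+, CD51+ BMSCs (2 arrays) were marrow stromal cells carrying the integrin alpha V chain, Osx+ osteoprogenitors (2 arrays) carried GFP driven by Osterix, and CD45+ cells (2 arrays) were marrow hematopoietic cells. For CD51+ BMSCs the methods add the CD105+CD140a+ gate, which the labels leave out, and for the Nes+ array 1 label field gives periosteum as the source while the title gives marrow. The same field gives periosteum for the Osx+ arrays, for which the methods name no tissue. Age and irradiation of the mice behind the last 4 populations were not given in the sources used here. The methods pooled cells of several male and female mice for RNA and call the arrays of a population biological repeats. It was not stated whether repeats came from different mice, and p-values then measure only how far these samples spread, which may be technical.

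Wnt ligands are secreted, lipid-modified glycoproteins. A ligand that bridges a Frizzled receptor and the co-receptor Lrp5 or Lrp6 keeps beta-catenin from being degraded, and beta-catenin then acts with TCF/LEF factors on target genes. Other ligands, Wnt5a among them, act largely through Frizzled with Ror1, Ror2 or Ryk on cell polarity and movement. In bone, Wnt signalling through Lrp5 and Lrp6 is known to favour osteoblast formation, and several ligands pattern the growth plate and the joints.

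Values are log2 expression values, on which 1 unit is a 2-fold difference. A gene is said to have passed where limma's moderated test gave an adjusted p under 0.05 over all 45037 probe sets tested, and padj below stands for this Benjamini-Hochberg adjusted p. In bulk arrays, fewer cells of a type and less RNA per cell cannot be told apart. The deposited table held no detection calls, so a low value could not be separated from background, and levels were compared between populations and never between genes.

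The arrays were unequal. In both stem cell populations array 2 stood apart from array 1, with correlations over all probe sets of 0.456 and 0.771 within the P-SSC and BM-SSC pairs, against 0.985 to 0.995 in the CD51+, Osx+ and CD45+ pairs. The mean of 5 genes that nearly every cell expresses strongly (Actb, Eef1a1, Rplp0, Rps3 and Tpt1) was 7.21 on P-SSC array 2 and 12.47 to 13.53 on the others. Among the 34 genes, 16 differed by more than 1 unit between the arrays of the P-SSCs and 20 between those of the BM-SSCs, and 0 did so in the other pairs. Of the sorting genes, Pdgfra (CD140a) was 11.28 and 4.41 on the P-SSC arrays, 10.95 and 6.90 on the BM-SSC arrays and 3.62 and 3.42 on the CD45+ arrays. Ptprc (CD45) was 10.23 and 10.17 in CD51+ BMSCs and 12.06 and 12.05 in CD45+ cells. Results are therefore also given without array 2 of both stem cell populations, a setting chosen after seeing the data.

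**Figure D1:**
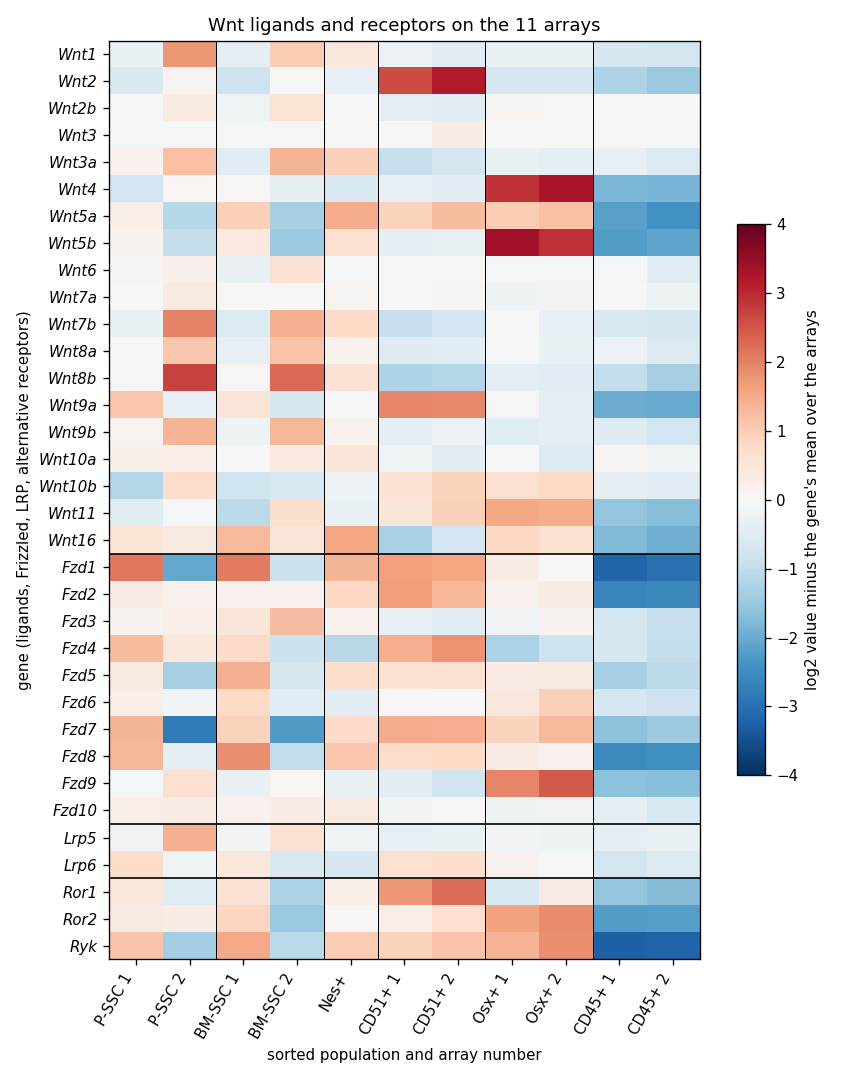
Values of the 34 genes (rows, grouped by role) on the 11 arrays (columns), as the log2 value minus the gene's mean over the arrays (red higher, blue lower). Wnt4 and Wnt5b are reddest in Osx+ cells and Wnt2 in CD51+ BMSCs, the receptors Fzd1, Fzd2, Fzd8 and Ryk are bluest in CD45+ cells, and array 2 of both stem cell populations departs from array 1.

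Across the comparisons, 14 of the 34 genes passed at least once: 7 ligands (Wnt2, Wnt4, Wnt5a, Wnt5b, Wnt9a, Wnt11 and Wnt16), 4 Frizzled receptors (Fzd2, Fzd3, Fzd4 and Fzd9) and the 3 alternative receptors. Neither Lrp5 nor Lrp6 passed. Shares of all genes were taken by comparison and are given below, so the count over all comparisons has no such share beside it. By mean level the 14 genes formed a set highest in Osx+ osteoprogenitors (Wnt4, Wnt5b, Wnt11, Fzd9, Ror2 and Ryk), a set highest in CD51+ BMSCs (Wnt2, Wnt9a, Fzd2, Fzd4 and Ror1) and others highest in Nes+ BMSCs (Wnt5a and Wnt16) or BM-SSCs (Fzd3). For 26 of the 34 the lowest array was a CD45+ array.

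The promoters of 4 of the genes highest in Osx+ cells and of Wnt2 are shown because Wnt4, Wnt5b, Fzd9 and Wnt2 passed between stromal populations and Wnt11 was highest on the Osx+ arrays. Each is the 250 bases before the annotated start, 5′ to 3′ on the gene's strand, from RefSeq on GRCm38.p6: Wnt4 at chr4:137277385-137277634 (plus strand), Wnt5b at chr6:119449387-119449636 (minus strand, 1 of 3 annotated starts), Wnt11 at chr7:98834862-98835111 (plus strand, 1 of 2 annotated starts), Fzd9 at chr5:135251048-135251297 (minus strand) and Wnt2 at chr6:18030446-18030695 (minus strand). Capitals mark matches to CTTTGAT, the core letters bound by TCF/LEF factors, searched on both strands (the match in Wnt11 is on the opposite strand and reads as its complement).
Wnt4: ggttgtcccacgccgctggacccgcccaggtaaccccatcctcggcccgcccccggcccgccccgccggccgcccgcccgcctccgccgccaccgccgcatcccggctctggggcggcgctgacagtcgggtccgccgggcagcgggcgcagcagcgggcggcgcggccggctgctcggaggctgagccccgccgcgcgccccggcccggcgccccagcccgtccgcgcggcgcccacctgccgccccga
Wnt5b: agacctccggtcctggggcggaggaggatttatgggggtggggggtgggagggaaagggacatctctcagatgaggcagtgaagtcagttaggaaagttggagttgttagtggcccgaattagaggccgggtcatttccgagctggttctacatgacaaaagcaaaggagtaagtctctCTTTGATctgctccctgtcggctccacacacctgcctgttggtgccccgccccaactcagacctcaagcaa
Wnt11: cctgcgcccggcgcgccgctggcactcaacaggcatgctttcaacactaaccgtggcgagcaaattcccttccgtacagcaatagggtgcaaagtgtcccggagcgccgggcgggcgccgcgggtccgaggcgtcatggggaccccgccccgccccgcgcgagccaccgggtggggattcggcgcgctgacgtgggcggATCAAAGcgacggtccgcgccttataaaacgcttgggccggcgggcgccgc
Fzd9: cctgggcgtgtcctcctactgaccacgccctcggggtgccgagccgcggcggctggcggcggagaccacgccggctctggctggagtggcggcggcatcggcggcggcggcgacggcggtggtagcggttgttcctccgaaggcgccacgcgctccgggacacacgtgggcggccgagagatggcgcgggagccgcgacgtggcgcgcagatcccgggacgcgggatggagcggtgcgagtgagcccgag
Wnt2: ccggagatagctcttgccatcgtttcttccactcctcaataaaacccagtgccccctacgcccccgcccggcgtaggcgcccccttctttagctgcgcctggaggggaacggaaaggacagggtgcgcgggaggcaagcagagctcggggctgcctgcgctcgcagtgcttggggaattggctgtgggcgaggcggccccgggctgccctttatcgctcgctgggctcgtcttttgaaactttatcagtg
A window could be had for 24 of the 34 genes, 27 windows in all, and 2 of these, the Wnt5b and Wnt11 windows above, held CTTTGAT, at positions -71 and -51 from the start. The same letters stood in 3.21% of 32851 promoter windows of this length. TGTGGT, the core letters of RUNX factors, stood in 1 of the 27 windows (Ror1) and in 14% of all windows. A match is only a run of letters, and its absence from a window says nothing about the factor.

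Against CD45+ cells, the question was which ligands and receptors the sorted skeletal cells carried above hematopoietic cells of the marrow. All calls ran one way. In P-SSCs 5 of the 34 genes passed as higher (Wnt4, Wnt9a, Wnt16, Fzd2 and Fzd9) and 0 as lower, where 3.09% of all genes passed as higher and 9.39% as lower. In BM-SSCs 5 were higher (Wnt4, Wnt16, Fzd2, Fzd3 and Fzd9) and 0 lower, against 2.94% and 8.02% of all genes. In CD51+ BMSCs 7 were higher (Wnt2, Wnt5a, Wnt9a, Fzd2, Fzd4, Ror1 and Ryk) and 0 lower, against 4.25% and 3.66% of all genes. In Osx+ cells 9 were higher (Wnt4, Wnt5a, Wnt5b, Wnt11, Wnt16, Fzd2, Fzd9, Ror2 and Ryk) and 0 lower, against 4.91% and 7.05% of all genes. These comparisons share the CD45+ arrays. The median difference of the 34 genes was 1.38 in P-SSCs, 1.16 in BM-SSCs, 1.11 in CD51+ BMSCs and 0.98 in Osx+ cells, beside 0.19, 0.08, -0.07 and 0.02 over all genes. Centring each array on its median shifted differences by up to 0.335 (P-SSCs minus CD45+ cells).

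**Figure D2:**
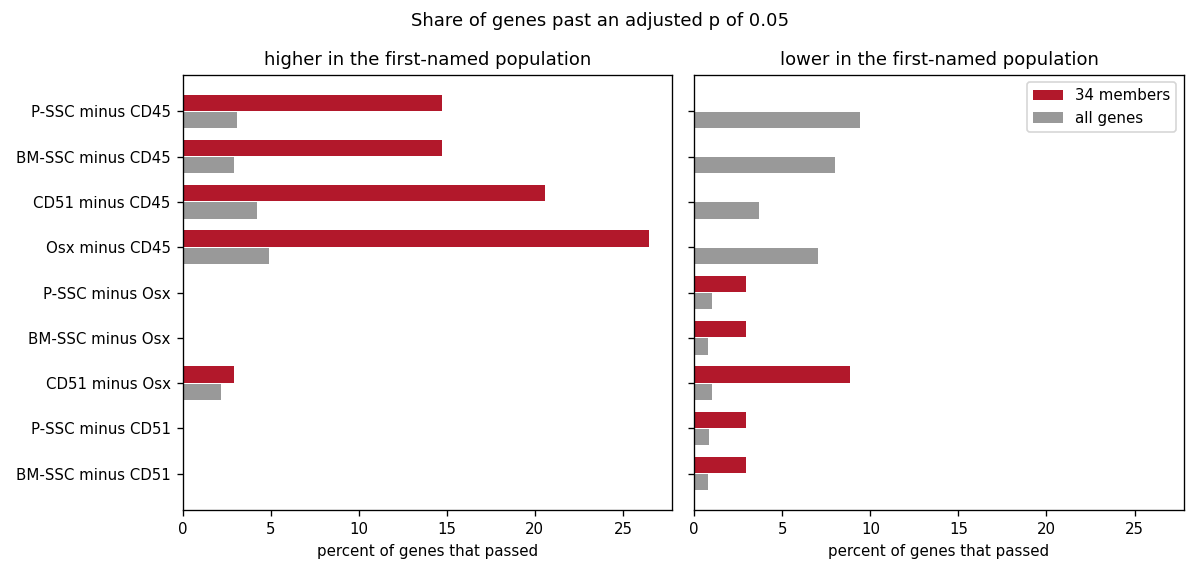
Percent of the 34 genes (red bars) and of all 18193 genes (grey bars) that passed in each comparison, with genes higher in the first-named population in the left panel and lower in the right. Against CD45+ cells red bars stand only on the higher side, with 5, 5, 7 and 9 genes, and the red bars of the other comparisons stand for 1 gene each except the lower side of CD51+ minus Osx+ cells (3 genes).

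Some settings ended calls of many of these genes together. Quantile normalization ended 15 of the 34 differences by gene and comparison that passed: those of Wnt5a, Wnt11, Fzd3, Fzd4 and Ror1, that of Wnt5b in CD51+ BMSCs against Osx+ cells, and those of Wnt4 and Fzd9 except in Osx+ over CD45+ cells. A fit of only the populations compared ended 13 of the 14 calls of P-SSCs and BM-SSCs, all but Fzd2 in BM-SSCs. Median centring ended 7 (both of Wnt5a, Wnt4 and Wnt9a in P-SSCs and Fzd4 and Ryk in CD51+ BMSCs over CD45+ cells, and Wnt5b in CD51+ BMSCs against Osx+ cells). The array number as a block ended 4, all over CD45+ cells (Wnt4 in P-SSCs and BM-SSCs, Fzd9 in BM-SSCs and Fzd4 in CD51+ BMSCs). The losses on leaving out 1 array are given gene by gene below, with the highest adjusted p over these and the settings just named.

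Wnt4, a ligand that acts in kidney, gonad and joint development, marked Osx+ cells. Its values were 5.98 and 6.84 on the P-SSC arrays, 6.78 and 6.35 on the BM-SSC arrays, 6.13 on the Nes+ array, 6.41 and 6.30 on the CD51+ arrays, 9.64 and 10.01 on the Osx+ arrays and 4.91 and 4.88 on the CD45+ arrays. The Osx+ arrays lay above all 9 others and the CD45+ arrays below them, with no overlap. Wnt4 was lower than in Osx+ cells by 3.41 ± 0.385 (SE) in P-SSCs, with an adjusted p of 0.011, by 3.26 ± 0.385 in BM-SSCs, with an adjusted p of 0.0161, and by 3.47 ± 0.385 in CD51+ BMSCs, with an adjusted p of 0.00541. Against CD45+ cells it was higher by 1.52 in P-SSCs (padj = 0.049), 1.67 in BM-SSCs (padj = 0.0398) and 4.93 in Osx+ cells (padj = 0.000368). A second Wnt4 probe set gave the same order, with 4.82 to 5.78 in the other stromal populations, 8.30 and 8.10 in Osx+ cells and 3.08 and 2.85 in CD45+ cells, and it passed in the same 6 comparisons and also in CD51+ BMSCs against CD45+ cells (padj = 0.0215). Of the 6 calls, Osx+ over CD45+ cells held in every alternative (adjusted p 2.72e-05 to 0.00978). The others were each lost without either Osx+ array or either CD51+ array, all but the CD51+ call also without either CD45+ array, and the stem cell calls in part without array 2 of P-SSCs (over CD45+ cells), array 1 of BM-SSCs (over CD45+ cells) or array 2 of BM-SSCs (both). Their adjusted p reached 0.0875 in CD51+ BMSCs, 0.316 in BM-SSCs and 0.511 in P-SSCs against Osx+ cells, and 0.281 in P-SSCs and 0.263 in BM-SSCs against CD45+ cells.

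Wnt5b, a ligand of the growth plate that acts on chondrocyte maturation in the mouse, had the same pattern. It read 5.60 and 4.49 on the P-SSC arrays, 5.83 and 3.98 on the BM-SSC arrays, 6.08 on the Nes+ array, 5.06 and 5.14 on the CD51+ arrays, 8.82 and 8.38 on the Osx+ arrays and 3.23 and 3.35 on the CD45+ arrays. The Osx+ arrays again stood above all others. It was higher in Osx+ than in CD45+ cells by 5.32 ± 0.628 (padj = 0.00207) and this call held in every alternative. It was lower in CD51+ BMSCs than in Osx+ cells by 3.50 ± 0.628 (padj = 0.0338), a call lost without any 1 of the CD51+, Osx+ or CD45+ arrays (adjusted p 0.000388 to 0.297 over the alternatives). In P-SSCs and BM-SSCs the differences from Osx+ cells were -3.56 and -3.70 and did not pass (padj = 0.0601 each), while on the second probe set they were -2.92 and -2.57 and passed (padj = 0.0116 and 0.0218). The Wnt5b window printed above holds the TCF/LEF letters, as does the printed Wnt11 window. Windows at the other annotated starts of these genes do not hold them.

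Wnt11, a ligand that acts mainly outside the beta-catenin route, read 6.30 and 6.71 on the P-SSC arrays, 5.69 and 7.46 on the BM-SSC arrays, 6.45 on the Nes+ array, 7.23 and 7.70 on the CD51+ arrays, 8.30 and 8.23 on the Osx+ arrays and 5.18 and 5.07 on the CD45+ arrays. The Osx+ arrays were highest, but closer to CD51+ BMSCs than for Wnt4 or Wnt5b. It passed only in Osx+ over CD45+ cells (3.14 ± 0.557, padj = 0.0122), and not without any 1 of the Osx+ or CD45+ arrays (adjusted p up to 0.197 over the alternatives). Fzd9, a Frizzled receptor whose loss lowers bone formation in mice, read 6.26 and 7.03 on the P-SSC arrays, 6.09 and 6.44 on the BM-SSC arrays, 6.09 on the Nes+ array, 5.92 and 5.57 on the CD51+ arrays, 8.30 and 8.81 on the Osx+ arrays and 4.72 and 4.66 on the CD45+ arrays. The Osx+ arrays did not overlap with any other population, and the CD45+ arrays lay below all. Fzd9 was higher than in CD45+ cells by 1.96 in P-SSCs (padj = 0.0227), 1.58 in BM-SSCs (padj = 0.048) and 3.87 in Osx+ cells (padj = 0.00104), and lower in CD51+ BMSCs than in Osx+ cells by 2.81 (padj = 0.0115). The Osx+ over CD45+ call held in every alternative (adjusted p up to 0.0444). The stem cell calls were lost without any 1 of the CD51+, Osx+ or CD45+ arrays (adjusted p up to 0.19 in P-SSCs and 0.295 in BM-SSCs), that in BM-SSCs also without BM-SSC array 2, and the CD51+ call was lost without any 1 of the CD51+ or Osx+ arrays (adjusted p up to 0.27).

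Ror2, the receptor tyrosine kinase that binds Wnt5a and is needed for cartilage and limb growth, was highest in the same cells. Its values were 6.14 and 6.07 on the P-SSC arrays, 6.63 and 4.30 on the BM-SSC arrays, 5.83 on the Nes+ array, 6.01 and 6.45 on the CD51+ arrays, 7.40 and 7.67 on the Osx+ arrays and 3.55 and 3.59 on the CD45+ arrays. Only the Osx+ over CD45+ difference passed (3.97 ± 0.673, padj = 0.0101), and it was lost without any 1 of the Osx+ or CD45+ arrays (adjusted p up to 0.087). The second Ror2 probe set did not pass there (2.02, padj = 0.0675). Its highest value was on P-SSC array 2 (6.11), with 6.04 and 5.28 on the Osx+ arrays. In all, against Osx+ cells, 1 gene (Wnt4) was lower and 0 higher in P-SSCs and likewise in BM-SSCs, where 1.02% and 0.055% of all genes passed as lower and higher in P-SSCs and 0.781% and 0.044% in BM-SSCs. In CD51+ BMSCs 3 were lower (Wnt4, Wnt5b and Fzd9) and 1 higher (Wnt2), against 0.984% and 2.21% of all genes. These comparisons share the Osx+ arrays. The median differences of the 34 genes were 0.14, 0.15 and 0.00, beside 0.15, 0.04 and -0.04 over all genes.

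**Figure D3:**
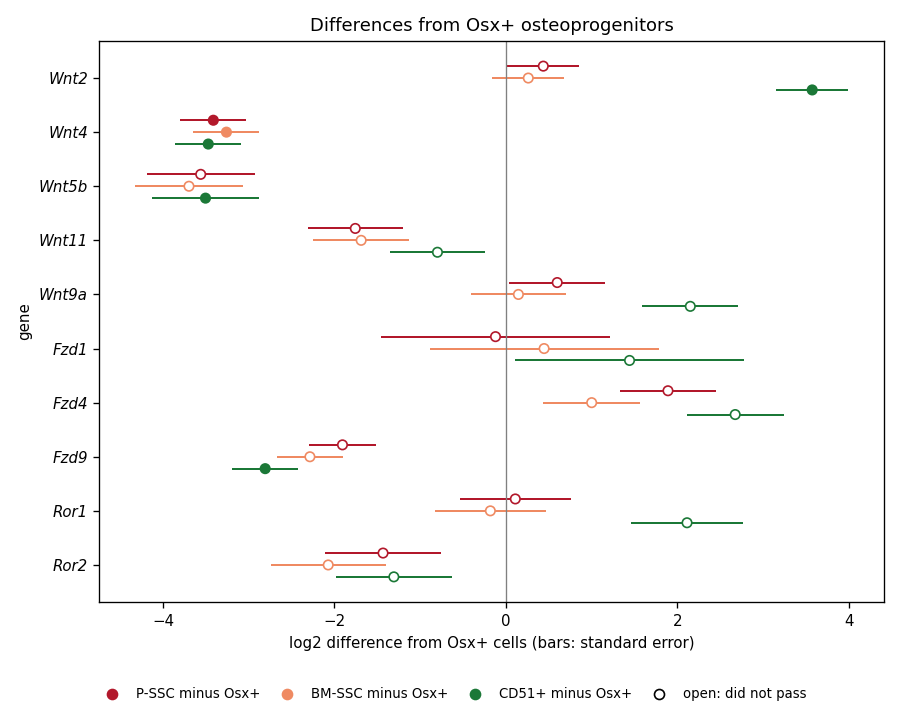
Log2 difference from Osx+ cells (horizontal axis) of 10 genes (rows) in P-SSCs, BM-SSCs and CD51+ BMSCs, with the standard error of the fit as bars and filled points where the adjusted p was under 0.05. Wnt4 lies near -3.4 in all 3 populations, Wnt5b near -3.6 with only the CD51+ point filled, and Wnt2 lies at 3.58 in CD51+ BMSCs only.

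Cartilage markers were, like this set, highest in Osx+ cells and lowest in CD45+ cells. For these markers CD51+ BMSCs were next highest. By mean CD51+ BMSCs were also second for Wnt11, Ror2 and Ryk, but not for Wnt4, Wnt5b and Fzd9. The mean of 12 chondrocyte genes was 6.53 and 5.06 on the P-SSC arrays, 7.58 and 6.01 on the BM-SSC arrays, 7.11 in Nes+ BMSCs, 9.03 and 9.36 in CD51+ BMSCs, 13.02 and 13.07 in Osx+ cells and 3.32 and 3.34 in CD45+ cells. Col2a1, the main cartilage collagen, read 14.81 and 14.75 in Osx+ cells, and all 12 genes passed there against CD45+ cells. The mean of 10 osteoblast and osteocyte genes did not single out these cells, with 7.39 and 4.95 on the P-SSC arrays, 9.29 and 7.83 on the BM-SSC arrays, 8.52 in Nes+ BMSCs, 6.81 and 6.79 in CD51+ BMSCs, 9.01 and 9.18 in Osx+ cells and 3.79 and 3.64 in CD45+ cells. Sp7 (Osterix) itself was 8.93 and 8.58 in Osx+ cells, against 4.30 and 4.05 in CD45+ cells. The part of the cartilage markers in the Wnt4, Wnt5b, Wnt11, Fzd9, Ror2 and Ryk differences was not tested.

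**Figure D4:**
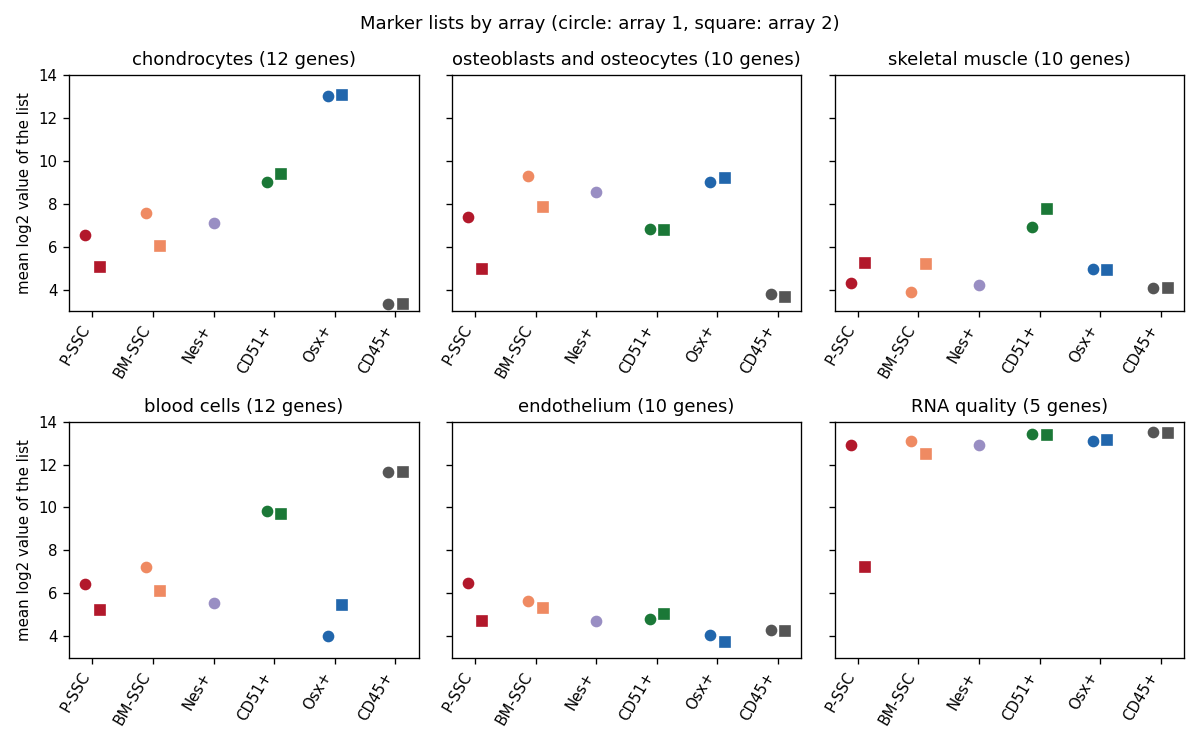
Mean log2 value of 6 marker lists (panels) on each array, by population, array 1 as circles and array 2 as squares. The chondrocyte list is highest in Osx+ cells (13.02 and 13.07), the muscle list in CD51+ BMSCs (6.89 and 7.73), the blood list in CD45+ cells with CD51+ BMSCs next (9.82 and 9.70), and the RNA quality list, the 5 genes named above, drops on P-SSC array 2 (7.21).

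Wnt2, a ligand of the beta-catenin route, marked CD51+ BMSCs. It read 4.04 and 4.73 on the P-SSC arrays, 3.81 and 4.62 on the BM-SSC arrays, 4.31 on the Nes+ array, 7.25 and 7.80 on the CD51+ arrays, 3.98 and 3.92 on the Osx+ arrays and 3.40 and 3.17 on the CD45+ arrays. The CD51+ arrays stood more than 2 units above every other array. Wnt2 was higher in CD51+ BMSCs than in CD45+ cells by 4.24 ± 0.420 (padj = 0.00334) and than in Osx+ cells by 3.58 ± 0.420 (padj = 0.00638). It was lower than in CD51+ BMSCs by 3.14 in P-SSCs (padj = 0.0291) and by 3.31 in BM-SSCs (padj = 0.026), and on the probe sets used it was the only 1 of the 34 genes to pass in these 2 comparisons. There 0.835% of all genes passed as lower and 0.0055% as higher in P-SSCs, and 0.803% and 0.0275% in BM-SSCs. Wnt2 has 1 probe set, in the dimmer part of the array, and no second reading. Its call over CD45+ cells was lost without CD51+ array 2 or either CD45+ array (adjusted p up to 0.065), that over Osx+ cells without any 1 of the CD51+ or Osx+ arrays (up to 0.0986), and those of the stem cells without any 1 of the CD51+, Osx+ or CD45+ arrays (up to 0.411 and 0.371).

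Wnt9a, a ligand of joint formation, was highest in the same cells. It read 7.06 and 5.63 on the P-SSC arrays, 6.49 and 5.30 on the BM-SSC arrays, 5.92 on the Nes+ array, 7.91 and 7.88 on the CD51+ arrays, 5.90 and 5.59 on the Osx+ arrays and 3.98 and 3.95 on the CD45+ arrays. It was higher than in CD45+ cells by 2.38 ± 0.558 in P-SSCs (padj = 0.0388) and 3.93 ± 0.558 in CD51+ BMSCs (padj = 0.00954). The other Wnt9a probe set read 2.38 to 3.81 on all arrays, was highest on P-SSC array 2 and passed nowhere, so that the probe sets of this gene disagree. Without any 1 of the CD51+ or CD45+ arrays both calls were lost, that in P-SSCs also without either Osx+ array and after median centring (adjusted p up to 0.234 in P-SSCs and 0.112 in CD51+ BMSCs).

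Fzd2, a Frizzled receptor used by several ligands, was the receptor read above CD45+ cells in all 4 populations tested. It read 6.55 and 6.43 on the P-SSC arrays, 6.43 and 6.43 on the BM-SSC arrays, 7.07 on the Nes+ array, 7.93 and 7.59 on the CD51+ arrays, 6.43 and 6.57 on the Osx+ arrays and 3.62 and 3.66 on the CD45+ arrays. The difference from CD45+ cells was 2.85 ± 0.296 in P-SSCs (padj = 0.00236), 2.79 in BM-SSCs (padj = 0.00238), 4.12 in CD51+ BMSCs (padj = 0.00161) and 2.86 in Osx+ cells (padj = 0.00119). These were among the most stable calls, lost only in P-SSCs and only when those 2 populations were fitted alone (padj = 0.114). On this probe set 4 arrays (P-SSC array 2, both BM-SSC arrays and Osx+ array 1) carried 1 identical value, which holds for 1.19% of all genes and 3 of the 34. The other Fzd2 probe sets, with no such tie, passed in CD51+ BMSCs (padj = 0.00938 and 0.00944) and in Osx+ cells (padj = 0.013 and 0.0115) but not in P-SSCs (1.62 and 1.40, padj = 0.0603 and 0.083) or BM-SSCs (1.68 and 1.40, padj = 0.0597 and 0.0952).

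Fzd4, a Frizzled receptor needed for retinal vessels, read 6.50 and 5.67 on the P-SSC arrays, 6.0 and 4.39 on the BM-SSC arrays, 4.13 on the Nes+ array, 6.71 and 7.03 on the CD51+ arrays, 3.96 and 4.42 on the Osx+ arrays and 4.55 and 4.30 on the CD45+ arrays. The CD51+ arrays were highest, with P-SSC array 1 next. The CD51+ over CD45+ difference passed (2.44 ± 0.564, padj = 0.0488) but was lost without any 1 of the CD51+, Osx+ or CD45+ arrays and under 4 other settings (adjusted p up to 0.336). A second Fzd4 probe set gave 3.18 for it (padj = 0.00438) and also passed in CD51+ BMSCs over Osx+ cells (2.81, padj = 0.00813), in P-SSCs over CD45+ cells (1.51, padj = 0.0368) and in BM-SSCs against CD51+ BMSCs (-2.35, padj = 0.0393).

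Ror1, the partner of Ror2 in binding Wnt5a, read 4.84 and 3.90 on the P-SSC arrays, 4.98 and 3.18 on the BM-SSC arrays, 4.68 on the Nes+ array, 6.12 and 6.62 on the CD51+ arrays, 3.79 and 4.73 on the Osx+ arrays and 2.86 and 2.68 on the CD45+ arrays. The CD51+ arrays lay above all others. Its difference between CD51+ BMSCs and CD45+ cells was 3.61 ± 0.651 (padj = 0.0204) and was lost without any 1 of the CD51+ or CD45+ arrays (adjusted p up to 0.193). Both other Ror1 probe sets were highest on P-SSC array 2 and did not show this pattern.

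Blood and muscle markers also set CD51+ BMSCs apart, although their label gives a sort that removes CD45+ cells. The mean of 12 blood cell genes was 5.24 to 7.24 on the stem cell arrays, 5.53 in Nes+ BMSCs, 9.82 and 9.70 in CD51+ BMSCs, 4.01 and 5.47 in Osx+ cells and 11.68 and 11.63 in CD45+ cells. The mean of 10 skeletal muscle genes was 6.89 and 7.73 in CD51+ BMSCs and 3.90 to 5.23 on the other arrays. In CD51+ BMSCs 7 of the 10 passed as higher than in CD45+ cells, against 4.25% of all genes. Acta1 (skeletal alpha actin) was 10.12 and 11.09 in CD51+ BMSCs, but Myh4 was 2.63 and 2.83 there. Tnni2 was higher in Osx+ cells (9.04 and 9.27) than in CD51+ BMSCs (8.07 and 9.02), and Myoz1 was highest on P-SSC array 2. The mean of 10 fibroblast and tendon genes was 11.38 and 11.52 in CD51+ BMSCs, but also 11.52 on P-SSC array 1. That of 10 endothelial genes was highest on P-SSC array 1 (6.47). Of these 2 lists, Pi16 (13.06 and 13.03), Dpt (12.41 and 12.78), Dcn (14.28 and 14.38) and Tek (7.91 and 8.12) were highest on the CD51+ arrays. The other genes of both lists were highest elsewhere. By mean, CD45+ cells were lowest of the 6 populations for Wnt2, Wnt9a, Fzd2 and Ror1, and Nes+ BMSCs and Osx+ cells were below them for Fzd4. The part of the blood, muscle, fibroblast and tendon, and endothelial markers in the differences of these 5 genes was not tested.

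The remaining ligands that passed were read in most skeletal populations. Wnt5a, the ligand of the Ror receptors, read 6.06 and 4.68 on the P-SSC arrays, 6.77 and 4.46 on the BM-SSC arrays, 7.29 on the Nes+ array, 6.71 and 7.08 on the CD51+ arrays, 6.80 and 6.98 on the Osx+ arrays and 3.62 and 3.37 on the CD45+ arrays. All skeletal arrays lay above both CD45+ arrays, and array 2 of both stem cell populations was lowest among them. It passed in CD51+ BMSCs (3.40 ± 0.753, padj = 0.0423) and in Osx+ cells (3.40 ± 0.753, padj = 0.0303) over CD45+ cells, and each call was lost without any 1 of the CD51+, Osx+ or CD45+ arrays and after median centring (adjusted p up to 0.293 and 0.201). Wnt16, which osteoblasts secrete and which limits cortical bone loss in the mouse, read 5.94 and 5.73 on the P-SSC arrays, 6.67 and 5.90 on the BM-SSC arrays, 6.98 on the Nes+ array, 4.08 and 4.63 on the CD51+ arrays, 6.22 and 6.02 on the Osx+ arrays and 3.63 and 3.41 on the CD45+ arrays. CD51+ BMSCs were closest to CD45+ cells, with no overlap between the CD51+ arrays and those of the other skeletal populations. Wnt16 was higher than in CD45+ cells by 2.32 ± 0.379 in P-SSCs (padj = 0.012), 2.76 in BM-SSCs (padj = 0.00621) and 2.60 in Osx+ cells (padj = 0.00522), calls that were lost without either CD45+ array, and in Osx+ cells also without Osx+ array 1 (adjusted p up to 0.139, 0.0885 and 0.0708).

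Ryk, a Wnt receptor with an inactive kinase domain, read 8.99 and 6.47 on the P-SSC arrays, 9.39 and 6.78 on the BM-SSC arrays, 8.87 on the Nes+ array, 8.80 and 8.99 on the CD51+ arrays, 9.21 and 9.72 on the Osx+ arrays and 4.60 and 4.65 on the CD45+ arrays. Every skeletal array lay above both CD45+ arrays by more than 1 unit. It passed in CD51+ BMSCs (4.27 ± 0.979, padj = 0.0478) and in Osx+ cells (4.84 ± 0.979, padj = 0.021), neither call holding without any 1 of the arrays of its own 2 populations, and that in CD51+ BMSCs also not without either Osx+ array (adjusted p up to 0.293 and 0.145). Fzd3, a Frizzled receptor of planar polarity in neurons, read 5.10 and 5.20 on the P-SSC arrays, 5.45 and 6.19 on the BM-SSC arrays, 5.12 on the Nes+ array, 4.64 and 4.51 on the CD51+ arrays, 4.86 and 5.10 on the Osx+ arrays and 4.29 and 4.04 on the CD45+ arrays. Its BM-SSC over CD45+ difference passed (1.65 ± 0.352, padj = 0.0301), was lost without BM-SSC array 2 and without any 1 of the CD51+, Osx+ or CD45+ arrays (adjusted p up to 0.256), and its highest value was on BM-SSC array 2. The other Fzd3 probe sets had the same sign there but did not pass (padj = 0.269 to 0.411).

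**Figure D5:**
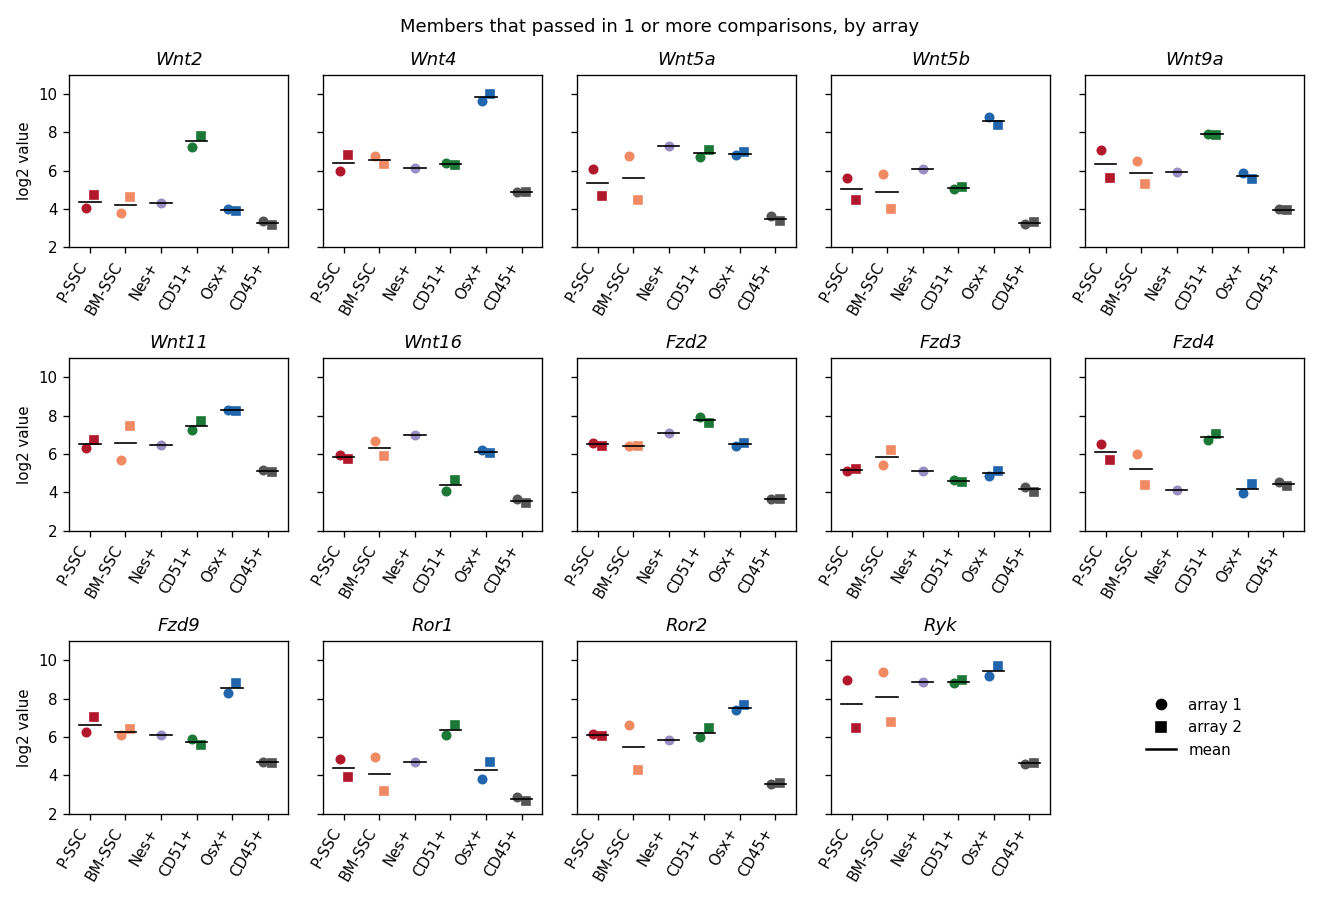
Log2 value on each array (circles array 1, squares array 2, lines the population mean) of the 14 genes that passed in at least 1 comparison, by population. Wnt4, Wnt5b and Fzd9 stand out in Osx+ cells, Wnt2, Wnt9a and Ror1 in CD51+ BMSCs, and Ryk, Wnt5a and Ror2 show wide gaps between the BM-SSC arrays.

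Some receptors spanned more than 3 units between population means and passed nowhere. Fzd1 read 9.79 and 5.63 on the P-SSC arrays, 9.75 and 6.80 on the BM-SSC arrays, 9.03 on the Nes+ array, 9.30 and 9.25 on the CD51+ arrays, 7.96 and 7.70 on the Osx+ arrays and 4.47 and 4.68 on the CD45+ arrays. Fzd7, a receptor much used by stem cells of other tissues, read 7.69 and 3.49 on the P-SSC arrays, 7.22 and 4.06 on the BM-SSC arrays, 7.09 on the Nes+ array, 7.80 and 7.77 on the CD51+ arrays, 7.21 and 7.60 on the Osx+ arrays and 4.66 and 4.85 on the CD45+ arrays. Fzd8 read 7.67 and 5.97 on the P-SSC arrays, 8.22 and 5.38 on the BM-SSC arrays, 7.46 on the Nes+ array, 7.08 and 7.16 on the CD51+ arrays, 6.64 and 6.53 on the Osx+ arrays and 3.85 and 3.90 on the CD45+ arrays. Over CD45+ cells the differences of Fzd1, Fzd7 and Fzd8 were 4.70, 3.03 and 3.25 in CD51+ BMSCs (padj = 0.0978, 0.355 and 0.087). In Osx+ cells they were 3.26, 2.65 and 2.71 (padj = 0.234, 0.398 and 0.123). The fit shares 1 spread over all populations. For Fzd1 the standard deviation was 2.95 in P-SSCs and 2.08 in BM-SSCs. It was 0.04 in CD51+ BMSCs, 0.18 in Osx+ cells and 0.15 in CD45+ cells. With the probe sets used, array 1 of both stem cell populations read these 3 receptors above either CD45+ array, while array 2 of both read Fzd7 below CD45+ cells. Without array 2 of both populations the differences from CD45+ cells passed for all 3, with 5.22, 2.93 and 3.79 for Fzd1, Fzd7 and Fzd8 in P-SSCs (padj = 1.17e-06, 2.74e-05 and 2.41e-06) and 5.18, 2.46 and 4.35 in BM-SSCs (padj = 1.19e-06, 6.7e-05 and 1.31e-06). Each stem cell population then has 1 array, whose spread is assumed to be that of the others. A further Fzd7 probe set disagreed on array 1, which read 4.01 in P-SSCs and 4.23 in BM-SSCs. CD45+ cells read 4.42 and 4.39 with that probe set. Its array 2 values, 6.36 in P-SSCs and 5.35 in BM-SSCs, lay above CD45+ cells.

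The same setting enlarged every count. Without array 2 of both populations 25 of the 34 genes passed in P-SSCs against CD45+ cells, where 55.3% of all genes did, and 20 in BM-SSCs, where 44.2% did. In CD51+ BMSCs 20 and in Osx+ cells 23 then passed against CD45+ cells (43.2% and 48.8% of all genes), and 19 in CD51+ BMSCs against Osx+ cells (30.2%). Against Osx+ cells 12 passed in P-SSCs (30.8% of all genes) and 11 in BM-SSCs (18.7%), and against CD51+ BMSCs 11 in each (32.8% and 17.2%). All 34 of the differences by gene and comparison that had passed with all arrays also passed there. Fzd4 was then higher than in Osx+ cells in P-SSCs (2.31, padj = 0.000691) and BM-SSCs (1.81, padj = 0.00295), beside 1.89 (padj = 0.212) and 1.00 (padj = 0.635) with all arrays. Wnt5b and Fzd9 were lower than in Osx+ cells in P-SSCs (-3.01 and -2.29) and BM-SSCs (-2.77 and -2.46), with adjusted p between 0.000133 and 0.00081.

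The 2 stem cell populations were compared to ask whether periosteal and marrow cells differ. Between P-SSCs and BM-SSCs 0 of the 34 genes passed, and 0% of all genes did. At an unadjusted p under 0.05 there were 0 of the 34 genes and 931 of the 45037 probe sets. The differences ran between -0.87 (Fzd5) and 0.89 (Fzd4), all within 1 unit, with standard errors of 0.290 (Wnt3) to 1.38 (Fzd7). The interval is narrow for Fzd2 (0.06, 95% interval -0.63 to 0.75) and Wnt4 (-0.15, -1.05 to 0.74). It is wide for Fzd1 (-0.57, -3.68 to 2.54) and Fzd7 (-0.05, -3.25 to 3.15). For Fzd2, P-SSC array 2 and both BM-SSC arrays carried 1 identical value, so its small spread is partly that tie. All these intervals treat the arrays as unpaired, while deviations of same-numbered arrays of these populations correlated at 0.784. Fzd1 read 9.79 in P-SSCs and 9.75 in BM-SSCs on array 1, and 5.63 and 6.80 on array 2. Fzd7 read 7.69 and 7.22 on array 1, and 3.49 and 4.06 on array 2. Without array 2 of both populations 2.46% of all genes and 1 of the 34 passed, Fzd5, a receptor of the beta-catenin route, at -1.08 (padj = 0.0489). Fzd5 read 6.88 and 5.20 in P-SSCs and 7.96 and 5.86 in BM-SSCs.

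Between BM-SSCs and the single Nes+ array 0 of the 34 genes and 0% of all genes passed, with 0 of the 34 and 376 probe sets at an unadjusted p under 0.05. The Nes+ array was assumed to vary like the others. Its values lay between the 2 BM-SSC arrays for Wnt11 and Ror2, and above both for Wnt5a and Wnt16. Without array 2 of both stem cell populations each side was 1 array, 9 of the 34 genes passed (6 higher and 3 lower in BM-SSCs) and so did 30.5% of all genes, with Fzd4 (1.87, padj = 0.00671) and Wnt3a (-1.39, padj = 0.00664) at the ends.

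The other 17 genes that passed nowhere are given by range. Among the ligands, Wnt3 (2.47 to 2.85), Wnt2b (2.69 to 3.66), Wnt7a (5.36 to 5.92) and Wnt6 (4.27 to 5.32) ran over little more than 1 unit or less. Wnt1 (3.17 to 5.65), Wnt7b (6.15 to 9.07), Wnt8b (2.43 to 6.46) and Wnt9b (3.70 to 5.83) were highest on P-SSC array 2, and Wnt3a (4.48 to 6.75) and Wnt8a (3.17 to 4.89) on BM-SSC array 2. In all 11 of the 34 genes, 9 of them ligands, had their highest value on one of these arrays. For Wnt7b, a ligand known to promote bone formation in mice, the other 9 arrays lay between 6.15 and 7.87. Wnt10a (3.11 to 4.13) was highest in Nes+ BMSCs. Wnt10b, which favours osteoblasts over fat cells in the mouse, ran from 3.46 to 5.50, with 5.22 and 5.50 in CD51+ BMSCs, 5.28 and 5.41 in Osx+ cells and 4.24 and 4.17 in CD45+ cells, and passed in neither.

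Among the receptors, Fzd5 ran from 5.19 to 7.96, Fzd6 from 4.46 to 6.26 and Fzd10 from 4.85 to 5.86. Lrp5, the co-receptor whose loss gives low bone mass in humans and mice, ran from 4.10 to 5.87 and was highest on P-SSC array 2 with BM-SSC array 2 next (5.07), and its other 9 arrays spanned 0.244 units. Lrp6, its partner, ran from 6.19 to 7.65, with 7.65 and 6.73 on the P-SSC arrays, 7.36 and 6.32 on the BM-SSC arrays, 6.24 on the Nes+ array, 7.57 and 7.63 on the CD51+ arrays, 7.09 and 6.92 on the Osx+ arrays and 6.19 and 6.37 on the CD45+ arrays. Over the 9 arrays without array 2 of both stem cell populations, 7 of the 34 genes spanned less than 1 unit.

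Beyond ligands and receptors, 49 genes of 6 lists of the pathway were read. Against CD45+ cells 8 of the 49 were higher in P-SSCs, 8 in BM-SSCs, 5 in CD51+ BMSCs and 9 in Osx+ cells, where 3.09%, 2.94%, 4.25% and 4.91% of all genes were higher, and 0 of the 49 were lower in any. Without array 2 of both stem cell populations P-SSCs had 26 higher and 4 lower, BM-SSCs had 25 higher and 5 lower, CD51+ BMSCs had 23 higher and 5 lower and Osx+ cells had 29 higher and 6 lower, where 55.3%, 44.2%, 43.2% and 48.8% of all genes passed in either direction. Against Osx+ cells 2 were lower in P-SSCs, the same 2 in BM-SSCs, and 3 lower and 1 higher in CD51+ BMSCs, and 0 passed in the other comparisons. Without those arrays more of the 49 passed against Osx+ cells in each of these populations, with more of them lower than higher. Some of the 49 then also passed in every comparison that had 0 calls with all arrays. The share of all genes that passed rose too in each of these comparisons. Each stem cell population then had 1 array. With all arrays the 2 were Rspo3 and Lgr6, of the 9 genes of the R-spondin axis, in which R-spondins bind Lgr receptors and keep Frizzled at the cell surface. Rspo3 read 4.98 and 4.28 on the P-SSC arrays, 5.01 and 4.17 on the BM-SSC arrays, 4.81 on the Nes+ array, 5.04 and 5.05 on the CD51+ arrays, 7.92 and 8.19 on the Osx+ arrays and 3.01 and 2.52 on the CD45+ arrays. Lgr6 read 3.91 and 4.40 on the P-SSC arrays, 5.01 and 5.15 on the BM-SSC arrays, 4.42 on the Nes+ array, 4.63 and 4.63 on the CD51+ arrays, 8.30 and 7.69 on the Osx+ arrays and 3.59 and 3.79 on the CD45+ arrays. As with Wnt4, the Osx+ arrays of both genes overlapped with no other. Rspo3 was lower than in Osx+ cells by 3.42 in P-SSCs (padj = 0.0158), 3.46 in BM-SSCs (padj = 0.0169) and 3.01 in CD51+ BMSCs (padj = 0.0118), and Lgr6 by 3.84 (padj = 0.00501), 2.92 (padj = 0.0167) and 3.36 (padj = 0.00437).

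Ptk7, a planar polarity receptor, was the third gene lower in CD51+ BMSCs than in Osx+ cells (-2.96, padj = 0.00659), with 6.07 and 6.01 on the P-SSC arrays, 6.54 and 6.22 on the BM-SSC arrays, 4.66 and 4.94 on the CD51+ arrays, 7.78 and 7.75 on the Osx+ arrays and 4.59 and 3.89 on the CD45+ arrays. The gene higher in CD51+ BMSCs was Ccn5 (2.72, padj = 0.0241), a matricellular protein induced by Wnt, with 8.53 and 8.53 in CD51+ BMSCs, against 5.25 and 6.37 in Osx+ cells. Of 9 feedback and target genes 3 were higher than CD45+ cells in P-SSCs, 4 in BM-SSCs, 2 in CD51+ BMSCs and 2 in Osx+ cells (6, 7, 5 and 6 without array 2 of both stem cell populations), beside the shares of all genes given above. Among them was Ccn4 at 5.67 in Osx+ cells (padj = 0.00367) and 4.25 in BM-SSCs (padj = 0.0171). Axin2, the target most often used to read beta-catenin activity, passed in no comparison with all arrays and ran from 5.03 to 6.08 over all arrays. Of 4 secretion genes Porcn passed in BM-SSCs (1.83, padj = 0.0335) and Notum, an enzyme that removes the lipid from Wnt, in Osx+ cells (2.73, padj = 0.0231), both over CD45+ cells. Of 7 nuclear factors Tcf7l1 passed in CD51+ BMSCs (1.85, padj = 0.0298) and Tcf7l2 in Osx+ cells (3.31, padj = 0.023). Of 10 cytoplasmic transduction genes 0 passed in any comparison with limma, and 4 of their 110 tests had an unadjusted p under 0.05. Without array 2 of both stem cell populations some of the 10 passed against CD45+ cells in each population. In each this was a smaller share than that of all genes given above, and each stem cell population then had 1 array.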

How the data were processed

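RNA of 6 sorted mouse populations had been hybridised to 11 arrays. Starting from scanner files, the authors used RMA, in Partek GS and R, to obtain the log2 values deposited. RMA corrects background, brings the probe values of all arrays to 1 distribution and summarises the probes of a set by median polish. The deposited probe set values still differed between arrays, with medians of 4.43 (CD45+ array 2) to 4.94 (P-SSC array 2). Their interquartile range was 1.81 on P-SSC array 2, 1.98 on BM-SSC array 2 and up to 3.56 on CD45+ array 2. limma is named for their tests, without a version. Scanner files were not used here. The values give no read depth, and precision rests on 1 or 2 arrays a population.

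The log2 values were used as deposited. Of the probe sets 64 array controls were left out and 45037 were tested with no filter on signal. Names came from the platform annotation (35890 probe sets, 34958 with 1 symbol); matching to RefSeq by gene ID changed 0 symbols. Each gene was read on its single-symbol probe set with the highest mean, and 22 of the 34 genes have several probe sets. Among the genes the lists named, Tcf7, Runx2, Spp1, Gapdh, Rpl3 and Tiki1 had no such probe set here and were not analysed. limma 3.58.1 in R 4.3.3 fitted a mean per population over all arrays (5 residual and 2.65 prior degrees of freedom), tested on simulated data first. The 11 comparisons were adjusted by Benjamini-Hochberg over all probe sets within each, at 0.05. Per-array values are given for genes that passed in a comparison or whose population means span over 3 units, other genes by range, and up to 4 genes of a pathway list among those that passed. The genes and lists were chosen with earlier results of these data known. Alternatives were dimmer probe sets left out, quantile normalization, median centring, fitting only the groups compared, a block for array number, 1 probe set for each gene and leaving out each array, and, chosen after seeing the data, leaving out array 2 of P-SSCs and BM-SSCs together.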

Additional observations from a re-analysis of the deposited data

How the results depend on the processing

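Counts of the 34 genes that passed moved with the settings as follows. In P-SSCs minus CD45+ cells the count was 5, and 3 after median centring, 0 in a fit of only these populations, 25 without array 2 of P-SSCs and BM-SSCs and 1 to 13 leaving out 1 array. In BM-SSCs minus CD45+ cells it was 5, and 3 after quantile normalization, 1 in the fit of these populations alone, 20 without array 2 of both and 1 to 9 leaving out 1 array. In CD51+ BMSCs minus CD45+ cells it was 7, and 4 without dimmer probe sets, 4 after quantile normalization, 22 alone, 20 without array 2 of both stem cell populations and 1 to 12 leaving out 1 array. In Osx+ minus CD45+ cells it was 9, and 22 alone, 23 without array 2 of both and 4 to 12 leaving out 1 array. In P-SSCs minus Osx+ cells it was 1, and 0 after quantile normalization, 2 after centring, 0 alone, 12 without array 2 of both and 0 to 10 leaving out 1 array. In BM-SSCs minus Osx+ cells it was 1, and 0, 2, 0, 11 and 0 to 4 in the same order. In CD51+ BMSCs minus Osx+ cells it was 4, and 1 after quantile normalization, 15 alone, 19 without array 2 of both and 0 to 8 leaving out 1 array. In P-SSCs minus CD51+ BMSCs it was 1, and 0 without dimmer probe sets, 0 alone, 11 without array 2 of both and 0 to 14 leaving out 1 array. In BM-SSCs minus CD51+ BMSCs it was 1, and 0, 0, 11 and 0 to 7 in the same order. In P-SSCs minus BM-SSCs it was 0, and 1 without array 2 of both and 0 to 1 leaving out 1 array. In BM-SSCs minus Nes+ BMSCs it was 0, and 9 without array 2 of both and 0 leaving out 1 array. The cause of these changes was not tested.

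Of the 34 differences by gene and comparison that passed, 28 of the 29 still measured passed without dimmer probe sets (Wnt2 and Ror1 were left out there), 19 after quantile normalization, 27 after centring, 21 in fits of only the groups compared, 34 with 1 probe set per gene and 34 without array 2 of both stem cell populations. Leaving out 1 array kept 30 to 34 where the array was of P-SSCs, BM-SSCs or Nes+ BMSCs, 13 or 14 for CD51+ BMSCs, 12 or 13 for Osx+ cells and 10 for CD45+ cells. Held in every alternative were Wnt4, Wnt5b and Fzd9 in Osx+ over CD45+ cells, and Fzd2 in BM-SSCs, CD51+ BMSCs and Osx+ cells over CD45+ cells. No passed difference changed sign in any setting. Deviations of same-numbered arrays correlated at 0.784 between P-SSCs and BM-SSCs, whose array 2 both stood apart from array 1. In all other pairs of populations they correlated at -0.267 to 0.0115, and array numbers did not pair the samples there. With the replicate number as a block, 30 of the 34 differences passed, and the counts were 4 in P-SSCs and 3 in BM-SSCs minus CD45+ cells, with no other count moved. Signal limits what low genes can show: 7 of the 34 genes stayed within 1 unit over 9 arrays, where a dim probe set and an unchanged gene cannot be told apart.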

Other observations

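Fzd10os, an antisense transcript beside Fzd10 that the naming rule does not take in, read 3.84 to 5.05 on 1 probe set and 3.07 to 4.03 on another, and passed in 0 comparisons on either. Its own gene, Fzd10, ran from 4.85 to 5.86.

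Where a gene that passed had further probe sets, these were compared within the same comparison. In Osx+ over CD45+ cells 6 of the 9 genes had 10 further probe sets, of which 10 had the same sign and 7 passed. In CD51+ BMSCs over CD45+ cells 6 of the 7 genes had 12 further probe sets, of which 11 had the same sign and 6 passed. In P-SSCs over CD45+ cells 4 further probe sets of 3 genes all had the same sign and 1 passed, and in BM-SSCs 8 of 3 genes all had the same sign and 1 passed.

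Of the genes of the pathway, Lgr5, a receptor for R-spondins that marks stem cells of the gut, read 5.0 and 5.63 on the P-SSC arrays, 4.51 and 4.78 on the BM-SSC arrays, 4.24 on the Nes+ array, 3.89 and 3.63 on the CD51+ arrays, 3.36 and 3.50 on the Osx+ arrays and 4.04 and 3.88 on the CD45+ arrays. The P-SSC arrays were above all others, and the difference from CD45+ cells was 1.36 (padj = 0.0476; 0.00701 to 0.302 over the alternatives). Tnfrsf19, a target of beta-catenin, read 7.79 and 5.39 on the P-SSC arrays, 9.26 and 7.33 on the BM-SSC arrays, 8.17 on the Nes+ array, 5.40 and 5.37 on the CD51+ arrays, 8.29 and 8.23 on the Osx+ arrays and 4.29 and 4.54 on the CD45+ arrays, and passed in BM-SSCs (3.88, padj = 0.0321) and Osx+ cells (3.84, padj = 0.0286) over CD45+ cells.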
